A study of Homo sapiens with 12 samples.

Results

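NEDD9, BCAR1, EFS and CASS4 make up the CAS family of adhesion scaffolds, and their RNA was followed in MDA-MB-231 cells, an established line of triple negative breast cancer, exposed to Paclitaxel. The 4 genes were found by their Ensembl identifiers among the 63568 genes of the count table, and 3 of them had enough reads to be tested. NEDD9 was chosen by its log2 fold changes with Paclitaxel, since it had the largest fall among adhesion genes in these data, so its values are given as a description with no test, and its 3 relatives serve as the comparison. The cells, a GFP-carrying line of wild-type genotype, were embedded in Matrigel droplets on a glass bottom. Libraries came in 6 conditions with 2 replicates each: C1 (untreated, day 2), C2 (untreated, day 4) and Paclitaxel at 0.0005, 0.005, 0.05 or 0.5 μM, added on day 2 and sampled on day 4. All 12 libraries share 1 cell line, so the replicates measure the spread between cultures of that line.

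CAS proteins have no enzyme activity. They hold an SH3 domain that binds focal adhesion kinase, a long substrate domain with repeated tyrosine sites and a C-terminal domain that binds NSP proteins, and they pass signals from integrins to the small GTPases that drive membrane protrusion. Once phosphorylated by focal adhesion kinase and Src family kinases, they recruit Crk adaptors and, through these, the Rac activator DOCK1. BCAR1 (p130Cas) is the broadly expressed member, NEDD9 (HEF1, CAS-L) is tied to invasion and is also found at the spindle and the primary cilium, EFS (Sin) is best known in lymphocytes, and CASS4 (HEPL) is the least studied. Paclitaxel binds microtubules and halts cells in mitosis.

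On GRCh37, the build of the deposited counts, NEDD9 (ENSG00000111859) spans chr6:11183531-11382581 on the minus strand, with 10359 bases of merged exons. BCAR1 (ENSG00000050820) spans chr16:75262079-75301951 on the minus strand, with 9199 exon bases. EFS (ENSG00000100842) lies at chr14:23825612-23834961, also on the minus strand, and CASS4 (ENSG00000087589) at chr20:54987168-55035443 on the plus strand. All 4 are protein-coding, and the counts are of reads in their exons.

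The start regions of NEDD9 and of BCAR1, the 2 abundant members, are shown to set their base composition and motifs side by side. In RefSeq (GRCh38.p14), 3 of the 4 genes matched, with 3 promoter windows for NEDD9, of which the first and second overlap, 5 for BCAR1 and 1 for EFS. The 250 bases before the most upstream NEDD9 start (chr6:11382349-11382598, minus strand), before its downstream start (chr6:11232669-11232918, minus strand) and before the most upstream BCAR1 start (chr16:75268008-75268257, minus strand) read as follows, with capitals marking motif matches.
NEDD9 upstream start: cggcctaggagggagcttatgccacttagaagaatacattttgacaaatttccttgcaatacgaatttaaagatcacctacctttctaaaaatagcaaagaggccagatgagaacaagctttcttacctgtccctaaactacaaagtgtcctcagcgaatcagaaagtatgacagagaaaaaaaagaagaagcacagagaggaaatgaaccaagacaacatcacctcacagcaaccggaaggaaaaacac
NEDD9 downstream start: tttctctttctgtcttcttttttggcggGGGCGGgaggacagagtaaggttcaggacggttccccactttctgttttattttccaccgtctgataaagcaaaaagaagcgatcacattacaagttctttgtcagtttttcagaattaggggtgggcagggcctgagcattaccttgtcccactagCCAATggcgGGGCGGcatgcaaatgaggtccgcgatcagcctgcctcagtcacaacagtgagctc
BCAR1 upstream start: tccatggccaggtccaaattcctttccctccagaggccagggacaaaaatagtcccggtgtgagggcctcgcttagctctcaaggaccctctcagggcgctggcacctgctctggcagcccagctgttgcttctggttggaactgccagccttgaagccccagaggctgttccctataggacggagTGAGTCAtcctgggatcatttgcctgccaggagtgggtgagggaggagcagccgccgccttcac
Letters of 5 motifs were searched on both strands from 250 bases before to 50 after each start, and the matches shown do not overlap: the cAMP response element TGACGTCA, which 1.85% of 35116 human windows hold, the AP-1 element TGANTCA (7.71%), the CCAAT box (34.6%), the TATA box TATAAA (11.5%) and the GC box GGGCGG (45% of windows). Neither of the overlapping upstream NEDD9 windows held any of the 5. The downstream NEDD9 window held 1 CCAAT box and 2 GC boxes, and the BCAR1 window shown held 1 AP-1 element. The other 4 BCAR1 windows held 1, 2, 1 and 2 GC boxes and none of the other motifs. The upstream NEDD9 sequence was 40.4% GC, and 13.4% of human windows are lower, against 50% GC in the downstream sequence and 60.4% in the BCAR1 sequence. Counts per gene do not tell which start a read came from.

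Library totals ran from 38380629 to 79169121 counts. The C1 libraries stood apart: the chi-square per gene between their replicates was 254.33, against 7.07 to 42.5 in the other conditions. C1 replicate 2 was the smallest library, and in the genes of highest GC content the median deviation from the mean of all libraries, in log2 CPM, was 0.44 in C1 replicate 1 and -0.20 in C1 replicate 2, against -0.21 to 0.18 in the other libraries, of which 0.5 μM replicate 2 was the lowest. Results that use C1 are therefore also given without it for the members, the genes beside them and the partner counts. Of the markers of this line, VIM, CD44, EGFR and AXL summed to 1841 to 3191 CPM (counts per 1000000 after TMM scaling) in the 4 untreated and 1553 to 2133 CPM in the 8 treated libraries. Markers that triple negative cells lack (ESR1, PGR, ERBB2, CDH1) summed to between 26.8 and 52.7 CPM. Nearly all of that was ERBB2, with condition means from 28.4 CPM (0.005 μM) to 39.5 CPM (C1). ESR1, PGR and CDH1 had no condition mean above 0.391 CPM. Fibroblast markers summed to between 8.5 and 18.1 CPM, mostly of COL1A1 and PDGFRB.

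NEDD9 was lower in every treated library than in every untreated one. On day 2 the untreated C1 libraries held 42.0 and 31.7 CPM. The untreated C2 libraries of day 4 held 65.0 and 41.6 CPM. With 0.0005 μM Paclitaxel NEDD9 stood at 28.5 and 21.3 CPM, which is already below the lowest untreated library. At 0.005 μM the replicates held 18.2 and 19.6 CPM, and at 0.05 μM they held 16.7 and 17.8 CPM. The 0.5 μM libraries, at 13.8 and 13.2 CPM, were the lowest of all. Among the 25249 tested genes, 5.77% had all 8 treated libraries below all 4 untreated ones, and since NEDD9 was selected for its fall nothing is read from its place among them. In bulk RNA, fewer cells with a transcript and less transcript per cell cannot be told apart.

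By condition, the mean NEDD9 level was 53.3 ± 16.5 CPM in C2 (SD, n = 2, as for all means below), 24.9 ± 5.07 CPM at the lowest dose, then 18.9 ± 0.96 and 17.3 ± 0.76 CPM, and 13.5 ± 0.48 CPM at the highest dose. In order of level, C2 and C1 (36.9 ± 7.24 CPM) came first and overlapped in their libraries. The 0.0005 μM libraries came next and overlapped with no other condition. The 0.005 and 0.05 μM libraries followed, and the ranges of the 2 doses did not meet, although the gap between them was 18.2 against 17.8 CPM. From C2 on, each condition of day 4 lay below the one before it in dose. This order is a description only, since NEDD9 was chosen for its fall.

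On the log2 scale the NEDD9 difference from C2 was -1.10 at the lowest dose, -1.495 at 0.005 μM, -1.63 at 0.05 μM and -1.98 at the highest dose, each with an SE of 0.22. These 4 comparisons share the C2 libraries and are not independent. C2 replicate 1 had the highest level of any library, and the differences without it were -0.74, -1.14, -1.27 and -1.63 in the same order. With C2 replicate 2 left out they were -1.39, -1.79, -1.92 and -2.28. The 8 treated against the 4 untreated libraries differed by -1.27 (SE 0.18), and against C2 alone by -1.501 (SE 0.22). From day 2 to day 4 without drug NEDD9 differed by 0.53 (SE 0.22), a value that was 0.17 without C2 replicate 1 and 0.82 without C2 replicate 2.

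Among the 54 tested genes of the CAS family, the paxillin and zyxin LIM proteins, the integrins and the focal adhesion plaque, NEDD9 had the lowest log2 fold change at all 4 doses and in treated against untreated libraries, which is how it was chosen. The gene next to it was ITGB3, the integrin β3 subunit, in each of these comparisons, at -0.76, -1.05, -0.97 and -1.02 for the 4 doses in rising order and -0.87 in treated against untreated. In untreated cells from day 2 to day 4 the position was different: NEDD9 ranked 51 of 54 from the lowest, and TNS1, a tensin, had the lowest value at -0.95.

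**Figure D1:**
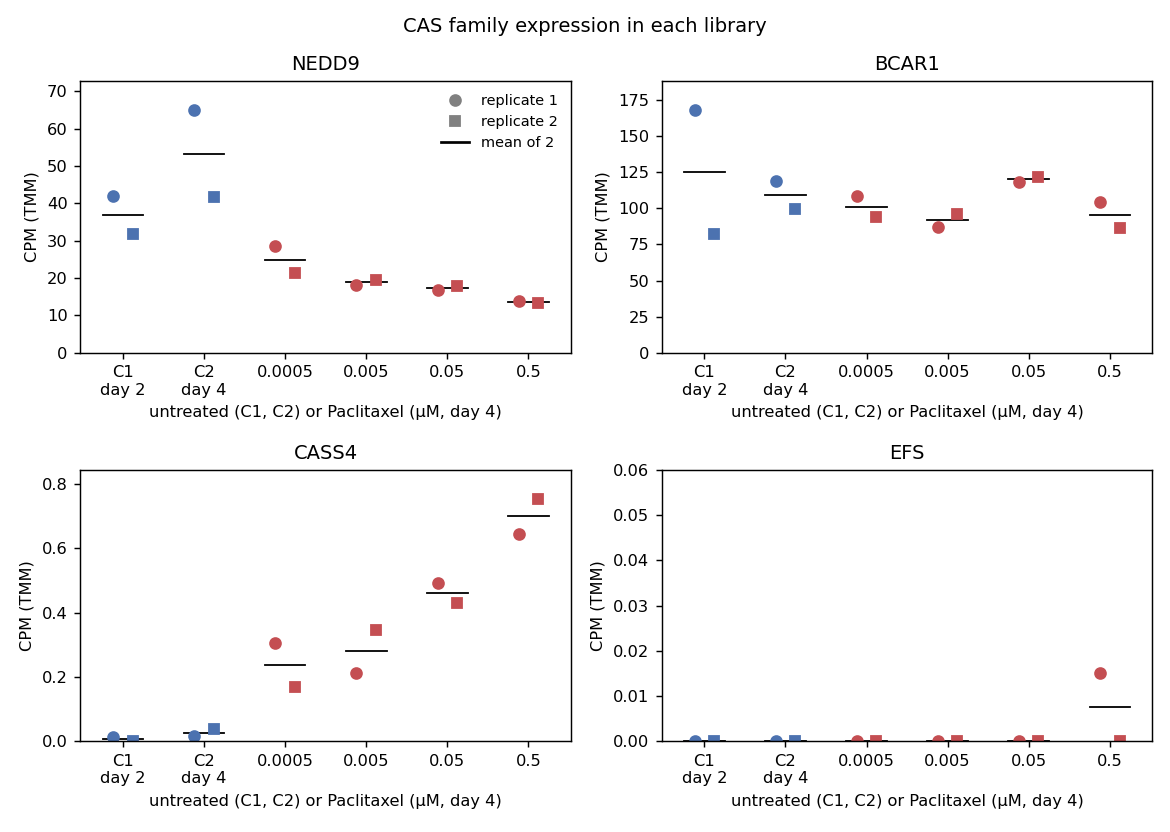
Expression of the 4 CAS family genes in each library, in TMM-scaled CPM (y axes differ between panels and start at 0), by condition; circles and squares are replicates 1 and 2, bars are means of 2, blue is untreated and red is Paclitaxel. NEDD9 runs from 65.0 CPM in a C2 library down to 13.2 CPM at 0.5 μM, BCAR1 shows no such step, CASS4 stays at or below 0.0368 CPM untreated and reaches 0.754 CPM, and EFS has a value above 0 in 1 library.

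BCAR1, the broadly expressed paralog, showed no difference between treated and untreated cells that passed the test. Untreated C1 libraries held 168 and 82.0 CPM, and C2 libraries held 119 and 99.5 CPM. At 0.0005 μM the values were 108 and 93.8 CPM, and at 0.005 μM they were 87.4 and 96.0 CPM. The 0.05 μM libraries held 118 and 122 CPM, and the 0.5 μM libraries 104 and 86.2 CPM. The 8 treated libraries (86.2 to 122 CPM, median 100.2) lay inside the untreated range (82.0 to 168 CPM, median 109), and only the 0.005 μM pair lay wholly below C2.

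Under the edgeR quasi-likelihood model, with p adjusted over all tested genes by Benjamini-Hochberg, the BCAR1 log2 fold change against C2 was -0.11 (95% interval -0.67 to 0.45, adjusted p = 0.858) at 0.0005 μM. It was -0.25 (interval -0.81 to 0.31, adjusted p = 0.626) at 0.005 μM and 0.14 (interval -0.42 to 0.70, adjusted p = 0.802) at 0.05 μM. At 0.5 μM it was -0.20 (interval -0.75 to 0.36, adjusted p = 0.684). The intervals leave room for a change of either sign at each dose. The sign at 0.0005 μM turned without C2 replicate 1 (0.02).

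In treated against untreated libraries the BCAR1 difference was -0.20 (interval -0.52 to 0.12, adjusted p = 0.363). Between days it was -0.20 (interval -0.76 to 0.36, adjusted p = 0.809). Both rest on the C1 libraries, of which replicate 1 holds 168 CPM and replicate 2 holds 82.0 CPM. Without C1 replicate 1 they turned to 0.02 and 0.41, and without C1 replicate 2 the day difference passed the test at -0.59 (adjusted p = 0.0238). Against C2 alone the treated libraries differed by -0.09 (adjusted p = 0.718). BCAR1 has a GC content of 63.1%, higher than 94.9% of the 10170 genes with a mean of at least 8 CPM and a known GC content. NEDD9 has 47.3%, higher than 51.7% of them. The part of GC content in the C1 values was not tested.

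**Figure D2:**
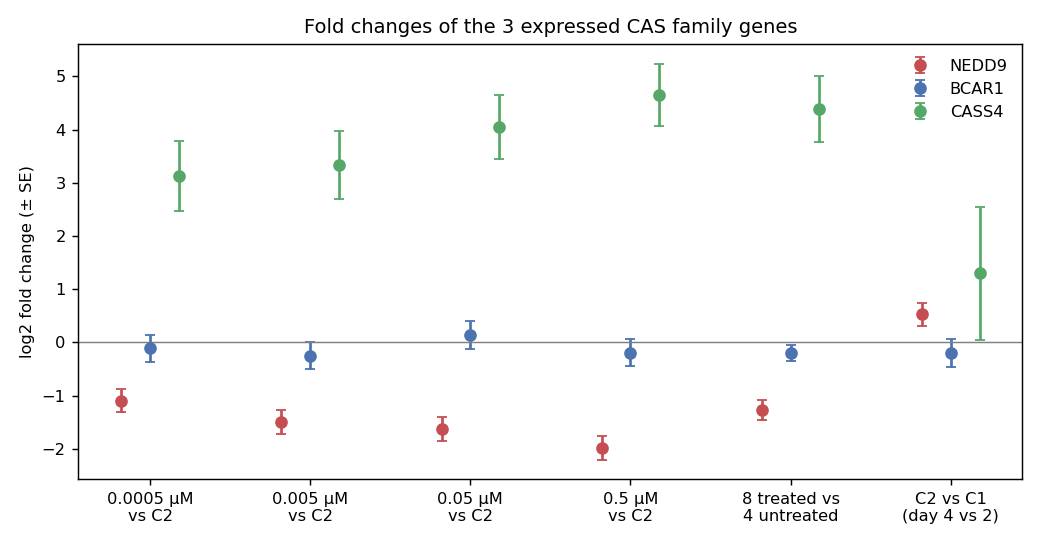
Log2 fold change with its standard error (y axis) for NEDD9, BCAR1 and CASS4 in each dose against C2, in 8 treated against 4 untreated libraries and in C2 against C1 (x axis). NEDD9 runs from -1.10 to -1.98 over the doses, BCAR1 stays between -0.25 and 0.14, and CASS4 runs from 3.13 to 4.65; NEDD9 was chosen for its fall.

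The balance of the 2 abundant members can be read within each library, where depth and scaling cancel. A difference between libraries by GC content need not cancel, since BCAR1 is higher in GC than NEDD9, and its part in the ratio was not tested. Per base of merged exon, a C1 library held 0.222 NEDD9 reads for each BCAR1 read in replicate 1 and 0.344 in replicate 2. In C2 the ratio was 0.485 and 0.371. At 0.0005 μM it was 0.234 and 0.202, and at 0.005 μM 0.185 and 0.181. The 2 highest doses lay together, with 0.125 and 0.130 at 0.05 μM and 0.118 and 0.136 at 0.5 μM. BCAR1 was thus the higher of the 2 in every library. The means were 0.428 ± 0.081 in C2 and 0.127 ± 0.013 at 0.5 μM. All treated libraries lay below both C2 libraries, but C1 replicate 1, the library with the high BCAR1 level, fell below 0.0005 μM replicate 1. Since NEDD9 was selected, the ratio is a description too.

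On the per-length scale of CPM per kilobase, the C2 level was 11.9 ± 1.49 for BCAR1 and 5.14 ± 1.6 for NEDD9. At 0.5 μM it was 10.4 ± 1.4 for BCAR1 and 1.3 ± 0.046 for NEDD9. CASS4 stood far below both, at 0.138 ± 0.015 CPM per kilobase at 0.5 μM.

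**Figure D3:**
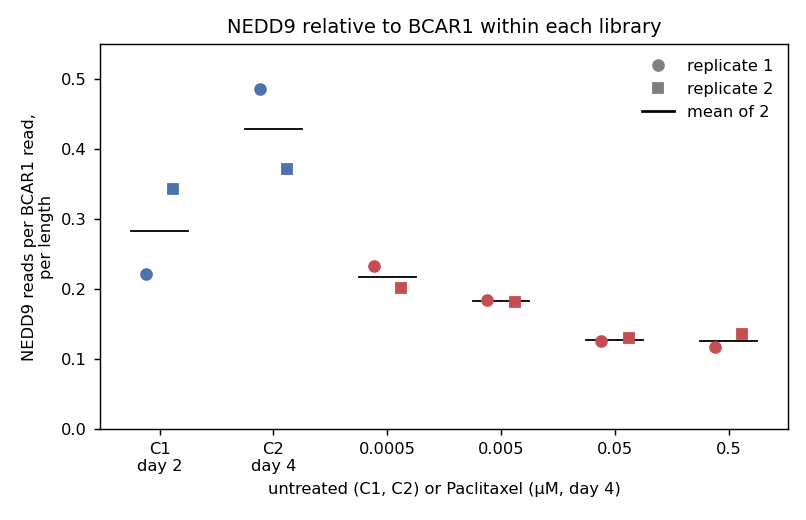
NEDD9 reads per BCAR1 read within each library, each divided by the gene's merged exon length (y axis, from 0), by condition; circles and squares are replicates, bars are means of 2. The C2 libraries lie at 0.485 and 0.371 and the 0.05 and 0.5 μM libraries between 0.118 and 0.136.

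CASS4 was higher with treatment, at low abundance: it was nearly unread in untreated cells and was detected in every treated library. Untreated libraries held 1 and 0 counts in C1 and 1 and 2 counts in C2, a level at or under 0.0368 CPM. Treated libraries held 23 and 10 counts at the lowest dose, 18 and 28 at 0.005 μM, 35 and 33 at 0.05 μM, and 43 and 41 at the highest dose. In CPM these were 0.306 and 0.170, 0.212 and 0.347, 0.491 and 0.431, and 0.645 and 0.754, so the libraries of the 2 lower doses overlapped, and those of 0.05 and of 0.5 μM lay above them. All 8 treated libraries were above all 4 untreated ones, as was true of 7.39% of the tested genes and of 12.5% of the 9470 tested genes with a mean under 1 CPM. For a gene at 0 counts, 3 counts are the limit that counting allows, which corresponds to 0.0354 to 0.0895 CPM depending on the library.

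CASS4 entered the tested set only through its treated libraries: the filter asks for 0.152 CPM in at least 2 libraries, which 0 of 4 untreated and 8 of 8 treated libraries reached. A difference in that direction was built into its being tested, so its fitted values are given with no test. The log2 fold change against C2 was 3.13 (SE 0.66) at 0.0005 μM, 3.33 (SE 0.64) at 0.005 μM, 4.05 (SE 0.61) at 0.05 μM and 4.65 (SE 0.59) at the highest dose. Of all tested genes, 1.87%, 2.5%, 5.09% and 4.36% were called higher in these comparisons, and of those with a mean under 1 CPM 2.07%, 3.96%, 8.29% and 6.81%.

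The C2 side of each comparison rests on 3 counts. As a ratio of CPM with a 95% interval for counting error only, CASS4 was 9.47 times C2 at 0.0005 μM (interval 2.97 to 48.3) and 26.7 times C2 at 0.5 μM (interval 8.83 to 132). All treated libraries, with 231 counts, stood at 22.4 times the 4 untreated libraries, with 4 counts (interval 8.62 to 82.8). In treated against untreated libraries, where 13.1% of tested genes and 22.2% of those with a mean under 1 CPM were called higher, the log2 difference was 4.38 (SE 0.62), and it was 3.91 with C2 alone as the control. Without single libraries the value ran from 2.62 to 3.74 at 0.0005 μM and from 4.17 to 5.25 at 0.5 μM. Between day 2 and day 4 CASS4 differed by 1.30 (interval -1.42 to 4.02), a comparison of 1 with 3 counts in which 0.321% of tested genes were called higher, and 0.116% of those with a mean under 1 CPM.

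Leukocyte markers were read in the same libraries. CD14 lay between 0.447 and 0.548 CPM in the untreated and between 0.85 and 1.62 CPM in the treated libraries, and PTPRC had 16 counts in the untreated and 112 in the treated ones. CD14, the lipopolysaccharide co-receptor of monocytes, was called higher in treated against untreated libraries by 1.17 (adjusted p = 0.000439), and by 1.17 (adjusted p = 0.00791) with C2 alone as the control. PTPRC, the CD45 phosphatase, reached the filter in 0 untreated and 6 treated libraries, so its counts are given with no test. The T cell marker CD3E had 1 count in the untreated and 7 in the treated libraries. Whether these genes share a source with CASS4 was not tested. The genes on either side of CASS4, CSTF1 and RTF2, differed between treated and untreated libraries by -0.16 (adjusted p = 0.299) and -0.09 (adjusted p = 0.621), and with C2 alone as the control by -0.05 (adjusted p = 0.802) and 0.05 (adjusted p = 0.826). On the opposite strand RPL39P shares 156 exon bases with CASS4, and it had 14 counts over all libraries, against 235 for CASS4.

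EFS was at the limit of detection. It had 1 count in 0.5 μM replicate 1 (0.015 CPM) and 0 in the other 11 libraries, and it did not pass the filter on low counts, so it was not tested. Any difference below the 3-count limits given above was not detectable at this depth.

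The near surroundings of NEDD9 were examined in the same libraries. An antisense gene (ENSG00000247925) shares 53 exon bases with NEDD9, and it had 26 counts over all libraries, against 20994 for NEDD9. The neighbouring SMIM13 differed by -0.35 (adjusted p = 0.00862) in treated against untreated libraries and by -0.23 (adjusted p = 0.318) at 0.5 μM. TMEM170B, the neighbour on the other side, differed by -0.53 (adjusted p = 0.00274) and by -0.80 (adjusted p = 0.0141) in the same comparisons. With C2 alone as the control of the treated libraries, SMIM13 was no longer called (-0.19, adjusted p = 0.123) and TMEM170B was (-0.66, adjusted p = 0.00226).

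Proteins that act with CAS scaffolds were followed through 8 lists with 54 genes, all of which had enough reads. At 0.0005, 0.005, 0.05 and 0.5 μM, 1, 0, 2 and 3 of the 54 were called in either direction, where 2.34%, 3.28%, 8.32% and 6.32% of all tested genes were called. The shares of all genes called lower were 0.479%, 0.776%, 3.23% and 1.96% at the same doses. At 0.005 μM, where edgeR called none, 7 of 54 had an unadjusted p under 0.05 and DESeq2 also called 0. In treated against untreated libraries 13 of 54 were called (24.1%), 2 higher and 11 lower, beside 24.4% of all tested genes, 13.1% higher and 11.3% lower. The median log2 fold change of the 54 was -0.14, and that of the 11193 tested genes with a mean of at least 8 CPM was -0.15. Read by direction, 20.4% of the 54 were called lower and 3.7% higher, and with upper quartile scaling this order turned, with 2 lower (3.7%, beside 5.38% of all genes) and 4 higher (7.41%, beside 17.4%). The number lower was 4 with C2 alone as the control (7.41%, beside 6.42% of all genes). It was 3 without C1 replicate 1 (5.56%, beside 6.89%) or C2 replicate 1 (5.56%, beside 7.88%), and 18 without C1 replicate 2 (33.3%, beside 12.9%). Between untreated days edgeR and DESeq2 called 0 of the 54, and 5 had an unadjusted p under 0.05 (background 0.325% called, 0.00396% lower).

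These counts differed with and without the C1 libraries. In the 10 libraries of day 4 alone, 6, 11, 9 and 19 of the 54 were called at the 4 doses, beside 10.3%, 12.7%, 19.2% and 20% of all tested genes. With C2 alone as the control of the treated libraries, 6 were called, beside 13.6% of all genes. Without C2 replicate 1 no partner was called at any dose, and 0.536%, 0.316%, 1.19% and 0.48% of all genes were. The count was also 0 at 0.0005 μM without C2 replicate 2 or 0.0005 μM replicate 1, at 0.05 μM without C2 replicate 2 or either 0.05 μM library, and at 0.5 μM without either 0.5 μM library, in fits that called 0.707% to 3.21% of all genes. In treated against untreated libraries it was 5 without C1 replicate 1 (15.6% of all genes) or C2 replicate 1 (17.9%), and 20 without C1 replicate 2 (26.4%). It was 8 without replicate 2 of 0.0005 μM (24.7%) or of 0.005 μM (20.1%), and 7 without 0.5 μM replicate 2 (21.2%). Between days it was 11 without C1 replicate 1 (10% of all genes) and 10 without C1 replicate 2 (7.03%).

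By list, the share called lower in treated against untreated libraries was 22.2% of the kinases, 21.4% of the exchange factors and GTPases, 20% of the phosphatases, 33.3% of the SMAD partners and 42.9% of the LIM proteins, and 0% of the SH2 adaptors, the NSP family and the mitotic and ciliary partners, beside 11.3% of all tested genes, in lists of 3 to 14 genes. The share called higher was 11.1% of the kinases, 33.3% of the 3 NSP genes and 0% of the other lists, beside 13.1% of all. These shares depended on the setting. With upper quartile scaling the share lower was 0% of the kinases, SMAD partners and LIM proteins, 7.14% of the exchange factors and GTPases and 20% of the phosphatases, beside 5.38% of all genes. It was 0% of the SMAD partners and LIM proteins also with C2 alone as the control (6.42% of all genes). The same held without C1 replicate 1 (6.89%) or C2 replicate 1 (7.88%). Without C1 replicate 2 it was 50% and 57.1%, beside 12.9% of all genes.

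Of the 9 tyrosine kinases that phosphorylate CAS proteins, 1 was called higher and 2 lower in treated against untreated libraries. LCK, a Src family kinase of T cells, was the higher one, at 0.337 to 0.477 CPM untreated and 0.72 to 1.22 CPM treated (1.18, SE 0.21, adjusted p = 0.000717), and it passed at 0.0005 μM (1.49, adjusted p = 0.015) and 0.05 μM (1.29, adjusted p = 0.0168). ABL2, an Abelson kinase that binds actin, was lower at 0.5 μM (-0.77, SE 0.15, adjusted p = 0.0139) and in treated against untreated libraries (-0.37, adjusted p = 0.0362). ABL1 was lower in treated against untreated libraries (-0.40, adjusted p = 0.0456). The calls on focal adhesion kinase (PTK2), PTK2B, SRC, FYN, YES1 and LYN did not pass in either comparison.

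None of the 5 SH2 adaptors (CRK, CRKL, NCK1, NCK2, GRB2) was called in treated against untreated libraries by edgeR, and 1 had an unadjusted p under 0.05. Of the 14 exchange factors and GTPases further down the chain, 3 were lower and none higher. DOCK1, the Rac activator that Crk recruits, lay between 48.2 and 83.8 CPM untreated and between 35.4 and 45.2 CPM treated (-0.64, SE 0.12, adjusted p = 0.00127). Its treated libraries all lay below the untreated ones, as was true of 5.77% of tested genes. RAPGEF1, an exchange factor for Rap1, was lower by the same comparison (-0.49, adjusted p = 0.0474), and so was ECT2, an exchange factor of cytokinesis (-0.37, adjusted p = 0.0236).

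The NSP proteins bind the C-terminal domain of CAS scaffolds. Of the 3, SH2D3C, which is known from lymphocytes, was higher in treated libraries (0.0597 to 0.229 CPM untreated, 0.323 to 0.612 CPM treated, 1.47, SE 0.30, adjusted p = 0.00207), and SH2D3A was lower at 0.5 μM (-0.84, SE 0.18, adjusted p = 0.0192). BCAR3 was not called in either comparison.

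Among 5 phosphatases, PTPN11 (SHP2) was lower in treated against untreated libraries (-0.45, SE 0.11, adjusted p = 0.00592). Of 5 mitotic and ciliary partners, AURKA, the mitotic kinase that NEDD9 binds and activates, was higher at 0.5 μM (0.75, SE 0.17, adjusted p = 0.0247) and was not called over all doses (0.06, adjusted p = 0.836). Of 6 SMAD partners and turnover genes, SMAD6, an inhibitory SMAD (-0.46, adjusted p = 0.0316), and CDC27, a subunit of the anaphase-promoting complex (-0.29, adjusted p = 0.0433), were lower. Of 7 LIM proteins, PXN (paxillin, -0.51, adjusted p = 0.0276), TGFB1I1 (HIC-5, -0.49, adjusted p = 0.0321) and LPP (-0.33, adjusted p = 0.0413) were lower in treated against untreated libraries, and none was called at 0.5 μM.

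**Figure D4:**
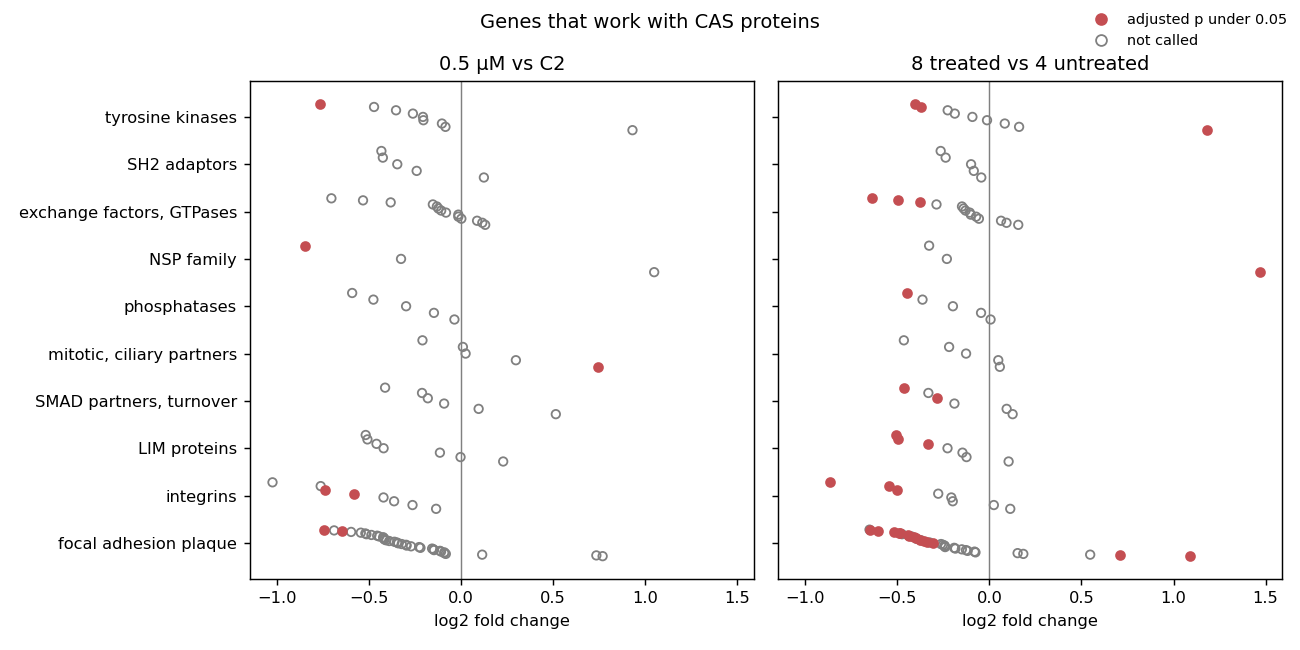
Log2 fold change (x axis) of every tested gene in 8 lists of CAS partners, the integrins and the focal adhesion plaque (rows), at 0.5 μM against C2 (left) and in 8 treated against 4 untreated libraries (right); red points have an adjusted p under 0.05. The called points to the right of 1 in the right panel are LCK, SH2D3C and FERMT3.

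The surface receptors above the scaffolds and the plaque around them were listed in the same way. Of 8 integrin genes, none was called higher and 3 were lower in treated against untreated libraries (37.5%, beside 11.3% of all tested genes), namely ITGB3 (-0.87, SE 0.18, adjusted p = 0.00227), ITGA6, a laminin receptor subunit (-0.55, adjusted p = 0.00362), and ITGB5 (-0.50, adjusted p = 0.0117). At 0.5 μM ITGA6 (-0.74, adjusted p = 0.0274) and ITGA2, a collagen receptor subunit (-0.58, adjusted p = 0.0456), were lower, and the values of all 8 were below 0. Of 36 plaque genes, 2 were higher (5.56%, beside 13.1% of all tested genes) and 13 lower (36.1%, beside 11.3%) in treated against untreated libraries. The shares of all tested genes are not those of genes of like level: of genes with a mean under 1 CPM, 22.2% were called higher. Tested genes with a mean of at least 8 CPM had a median log2 fold change of -0.15. The median was -0.32 for the plaque and -0.24 for the integrins. At 0.5 μM, where 1.96% of all genes were called lower, 2 were lower (5.56%), ARHGEF6 (-0.74, adjusted p = 0.0403) and VCL, vinculin (-0.65, adjusted p = 0.0408). The 2 higher ones were FERMT3, the kindlin of blood cells (1.53 to 2.82 CPM untreated, 3.72 to 5.26 CPM treated, 1.09, SE 0.16, adjusted p = 0.00015), and SDC4, syndecan-4 (0.71, adjusted p = 0.0303).

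The plaque counts changed with the libraries used. With C2 alone as the control 1 plaque gene was called higher and 4 lower (11.1%, beside 6.42% of all genes), and 10 of the 13 lower calls were lost. The number lower was 3 without C1 replicate 1 (8.33%, beside 6.89%), 20 without C1 replicate 2 (55.6%, beside 12.9%) and 6 without C2 replicate 1 (16.7%, beside 7.88%). With upper quartile scaling it was 5 (13.9%, beside 5.38%). At 0.5 μM, in the day 4 libraries alone, 13 were lower (36.1%, beside 10.8%), and with all groups fitted the count was 0 without C2 replicate 1 or without any 1 of the 8 treated libraries. The integrins called lower in treated against untreated libraries stayed at 3 with C2 alone and with upper quartile scaling, and were 2 without C2 replicate 1. At 0.5 μM 5 integrins were lower in the day 4 libraries alone (62.5%). The count was 0 without C2 replicate 1, without either library of 0.0005 or 0.005 μM, and without 0.5 μM replicate 2, and it was 1 without C2 replicate 2, 0.05 μM replicate 1 or 0.5 μM replicate 1 and with upper quartile scaling.

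Some of these calls held whichever library was left out. In treated against untreated libraries DOCK1, PTPN11, LCK, SH2D3C, ITGB3, ITGA6, FERMT3 and VCL stayed called under each of 21 alternatives, 12 of which leave out a library. ITGB5 lost its call only without C2 replicate 1. ABL2, ABL1, RAPGEF1 and CDC27 kept their call in 14, 10, 8 and 8 of 21. ECT2, SMAD6, PXN and TGFB1I1 lost it with C2 alone as the control, as did LPP, ARHGEF6 and SDC4. At 0.5 μM the calls of ABL2, SH2D3A, AURKA, ITGA6, ITGA2, ARHGEF6 and VCL were all lost without C2 replicate 1 and without 0.5 μM replicate 2, and all but that of ITGA6 without 0.5 μM replicate 1.

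A search by profile over the 12 libraries shows which genes were most like each of the 2 abundant members. Likeness was the root mean square difference between log2 CPM values centred on their mean, over 11088 genes with a symbol and a mean of at least 5 CPM, and the median difference from NEDD9 was 0.65. Nearest to NEDD9 was OSR2, a zinc finger factor, at 0.18, followed by KLF4 (0.24), ATF3 (0.25), MYADM (0.26) and SIK1 (0.28). KLF4 and ATF3 are transcription factors that respond to growth signals and stress, MYADM is a membrane protein, and SIK1 is a kinase induced by cAMP.

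The neighbours in that ranking differed by little: 0.24, 0.25, 0.26 and 0.28 follow each other closely. OSR2 lay between 15.2 and 24.3 CPM untreated and between 5.04 and 12.9 CPM treated, with no overlap, as SIK1 did at 83.8 to 199 and 49.2 to 74.0 CPM. Of all tested genes, 5.77% had no such overlap, and these 2 were picked for their likeness to NEDD9. KLF4 (84.0 to 173 CPM untreated, 50.9 to 96.4 CPM treated), ATF3 (243 to 455 and 120 to 274 CPM) and MYADM (119 to 273 and 52.3 to 134 CPM) overlapped. At 0.5 μM the 5 lay between -1.85 (OSR2) and -1.501 (KLF4) on the log2 scale, beside -1.98 for NEDD9. BCAR1 had nearer companions, with GIT1 at 0.0453, MIER2 at 0.0546, KDM2B at 0.0553, RBM15B at 0.0559 and WBP11 at 0.0569, against a median of 0.31. All these values describe the same 12 libraries and were not tested.

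**Figure D5:**
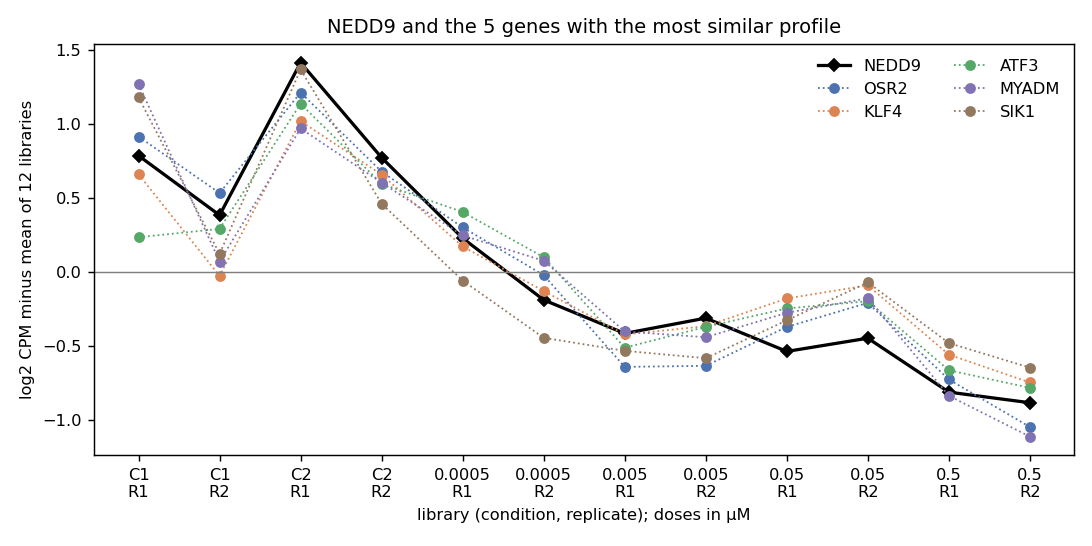
Log2 CPM minus the mean of the 12 libraries (y axis) for NEDD9 and the 5 genes nearest to it, by library (x axis: condition and replicate); lines only join the points of one gene. All 6 genes lie above 0 in both C2 libraries and below 0 at 0.005 μM and higher doses.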

How the data were processed

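RNA of 12 MDA-MB-231 cultures was measured by paired-end sequencing. Per the study's methods and the labels, the authors trimmed reads with Trimmomatic 0.39, inspected them with FastQC 0.11.9, aligned them with STAR 2.7.5 to GRCh37, kept unique alignments and counted reads in exons; the deposited values are integer counts per gene, neither normalized nor pooled, and the strand used in counting is not given in the sources used here. Single-sample files equalled the series table in 12 of 12 cases.

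Counts were scaled by TMM and filtered with filterByExpr over the 6 conditions (25249 genes tested). edgeR 4.0.16 quasi-likelihood tests with robust estimation, in R 4.3.3, compared each dose and C1 with C2 in 1 model of 12 libraries (6 residual degrees of freedom, common biological variation 15.6%). The 8 treated and 4 untreated libraries were compared in a 2-group fit. Tests were two-sided with Benjamini-Hochberg adjustment over all tested genes, called under 0.05. An exact test of 2 against 2 libraries cannot go below p = 0.333, so none was used. The fits were tested on simulated data. Exon lengths came from GENCODE release 44 on GRCh37. CPM were scaled by TMM, and a prior count of 2 was used for their log2.

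Members and lists were chosen with earlier results of these data known. Named were the 4 members, up to 3 genes a list with an adjusted p under 0.05 at 0.5 μM against C2 or in treated against untreated libraries, by size of change, and the 5 genes most like NEDD9 and BCAR1; ITGB5, TNS1, VCL and the genes beside or overlapping the members were named after their values were seen. The sample titles do not say whether replicate numbers pair libraries, and the main fits did not pair them. Same-numbered libraries deviated together with a correlation over 0.1 in 6 of 15 pairs of conditions. Alternatives were DESeq2 1.42.0, other scalings, filters, controls, a replicate block and leaving out each library. Intervals on ratios of counts cover counting error only. Some single items of the lists are not reported here.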

Additional observations from a re-analysis of the deposited data

How the results depend on the processing

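Over all alternatives, 456 values kept their direction and side of the threshold or stayed within the spread, 62 moved, 10 lost a call, 1 gained one and 3 changed sign. All 10 lost calls were fits of CASS4 without 1 library, 6 at 0.0005 μM, 3 at 0.005 μM and 1 at 0.05 μM. CASS4 entered the tested set only through its treated libraries, so neither its calls nor their loss is read as a test.

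With both untreated days as the control, the NEDD9 differences at 0.0005, 0.005, 0.05 and 0.5 μM were -0.83, -1.23, -1.36 and -1.72. Leaving out single libraries gave ranges of -1.39 to -0.74, -1.79 to -1.14, -1.92 to -1.27 and -2.28 to -1.63 at the 4 doses, -1.39 to -1.05 in treated against untreated libraries and 0.17 to 0.82 between days. For BCAR1 the same ranges were -0.24 to 0.023 (the latter without C2 replicate 1), -0.39 to -0.12, 0.0046 to 0.27 and -0.37 to -0.06 at the doses, -0.32 to 0.02 in treated against untreated libraries, where 0.0213 came without C1 replicate 1, and -0.59 to 0.41 between days. For CASS4 they were 2.62 to 3.74, 2.86 to 3.93, 3.58 to 4.65 and 4.17 to 5.25 at the doses, 4.17 to 4.90 in treated against untreated libraries and 0.69 to 3.87 between days. CASS4 could not be fitted in the 4 libraries of the lowest dose or of the day comparison alone, since it did not pass their filter.

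The count of called partner genes, 1, 0, 2 and 3 of 54 at the rising doses, was 2, 1, 4 and 5 with no filter (3.03% to 5.74% of all genes called), 7, 10, 7 and 10 in the 4 libraries of each comparison alone (11% to 12.6%), 2, 6, 8 and 9 with both untreated days as the control (8.26% to 17.1%), and 6, 11, 9 and 19 in the day 4 libraries alone (10.3% to 20%). DESeq2 called 2, 0, 5 and 6 (4.65% to 10.6%). Leaving out libraries gave 0 to 6, 0 to 11, 0 to 9 and 0 to 19. In treated against untreated libraries, the count of 13 was 6 with upper quartile scaling (22.8% of all genes) and 6 with C2 alone as the control (13.6%), and 5 to 20 without single libraries. Between days it was 0 to 11. The alternatives with C2 alone and with the day 4 libraries alone were chosen after seeing the data. The cause of these changes was not tested.

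With the replicate block the partner counts at the rising doses were 1, 0, 4 and 4, and 12 in treated against untreated libraries and 0 between days. The block changed no call of BCAR1. Same-numbered libraries correlated between -0.299 and 0.359, and whether they share more than a number was not tested.

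Conditions had 2 libraries each, CASS4 had 3 counts in C2, and EFS was below detection.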
